A study of Mus musculus with 10 samples.

Results

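Cholesterol synthesis and its control were followed here through 31 named genes in mouse kidneys exposed to cyclosporin A (CsA), a calcineurin inhibitor used to suppress immune reactions. The genes were taken by symbol from a fixed list: 19 enzymes of the route from acetyl-CoA to cholesterol and its isoprenoid branch, 5 genes that control the transcription factors of the route, 3 of the liver X receptor axis and 4 that move or store sterol. The list does not hold every gene of the pathway. All 31 were on the array, as 31 of 30896 genes, and where a gene had several features the brightest on average was used.

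The 5 CsA samples came from mice given 60 mg/kg under the skin once a day for 7 days, and the 5 vehicle samples from mice given a like volume of the solvent, cremophore. All were of C57BL/6 background, aged 10 to 12 weeks, on chow with 0.05% sodium, and carried a Pax8-rtTA system with which Vhl can be deleted by doxycycline. Pax8 drives that system in kidney tubule cells, and the labels do not say whether doxycycline was given to these animals. The series asked which pathways come before the kidney injury seen after longer dosing. RNA of ground kidney was hybridised to Affymetrix Mouse Gene ST 2.0 arrays, 1 array per sample, and values are log2 expression as the authors deposited them.

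The median log2 value of an array was 5.14 at the lowest and 5.21 at the highest, and precision is limited by having 5 arrays a group. Each sample title carries a number of its own, but the labels do not say that it marks an animal, so the p-values speak for the spread of these samples, part of which may be technical. Xist, the X-inactivation transcript of females, stood at 9.21 and 9.15 in CsA replicates 1 and 2, and between 4.20 and 4.82 in the other 8 arrays. These 2 CsA arrays thus carried female RNA, while all 5 vehicle arrays carried male RNA. Results are therefore given over all 10 arrays and over the 8 male arrays. Kidney origin was checked on 10 proximal tubule markers, all brighter than at least 98.8% of genes. Their mean was 10.95 to 11.58 in CsA and 11.50 to 11.57 in vehicle arrays, and among them Kap, a kidney gene that depends on androgen, stood at 7.12 and 6.85 in the female CsA arrays and at 12.22 to 12.42 in the male CsA arrays.

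Cells make cholesterol from acetyl-CoA by way of mevalonate, farnesyl diphosphate, squalene and lanosterol. Most genes of the route are known targets of the sterol regulatory element binding proteins (SREBPs), membrane-bound transcription factors that Scap carries to the Golgi for cleavage when sterol is scarce and that the Insig proteins hold back when sterol is plentiful. SREBP cleavage frees a factor that binds sterol response elements, usually next to binding sites of the CCAAT-box factor NF-Y and of Sp1. In the kidney the route also feeds the prenyl groups of small GTPases and the side chain of ubiquinone, which tubule mitochondria use.

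The RefSeq promoter table (mouse build GRCm38.p6) held 35 start sites for 26 of the 31 genes, and it did not list Fdft1, Fdps, Npc1, Sqle and Stard4. The stretches below are the 250 bases before each start, 5′ to 3′, with CCAAT boxes (CCAAT, or ATTGG on the other strand) and the sterol response element (TCACNCCAC on either strand) in capitals. They belong to Hmgcs1, the gene with the largest fall, and to Srebf1 and Srebf2, the genes of the SREBPs themselves, which were higher. Srebf1 had 1 feature on the array, so its 3 start sites were not told apart.
Hmgcs1 (chr13:119690101-119690350, plus strand): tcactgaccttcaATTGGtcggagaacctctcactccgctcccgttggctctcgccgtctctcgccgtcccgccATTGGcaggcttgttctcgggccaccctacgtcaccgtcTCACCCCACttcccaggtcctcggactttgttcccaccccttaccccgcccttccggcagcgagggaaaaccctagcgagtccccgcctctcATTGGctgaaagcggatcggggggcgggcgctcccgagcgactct
Srebf1 (chr11:60222582-60222831, minus strand): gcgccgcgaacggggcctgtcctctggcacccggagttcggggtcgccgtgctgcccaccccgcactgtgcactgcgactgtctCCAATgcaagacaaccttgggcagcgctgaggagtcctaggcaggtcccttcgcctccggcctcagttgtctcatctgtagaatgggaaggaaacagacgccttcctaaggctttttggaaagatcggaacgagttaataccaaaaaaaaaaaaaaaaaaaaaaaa
Srebf1 (chr11:60220628-60220877, minus strand): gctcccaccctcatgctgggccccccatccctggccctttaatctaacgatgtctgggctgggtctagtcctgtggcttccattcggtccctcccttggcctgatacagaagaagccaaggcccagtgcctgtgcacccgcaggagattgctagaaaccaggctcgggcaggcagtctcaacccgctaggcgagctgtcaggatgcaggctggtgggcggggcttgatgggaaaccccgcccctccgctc
Srebf1 (chr11:60210472-60210721, minus strand): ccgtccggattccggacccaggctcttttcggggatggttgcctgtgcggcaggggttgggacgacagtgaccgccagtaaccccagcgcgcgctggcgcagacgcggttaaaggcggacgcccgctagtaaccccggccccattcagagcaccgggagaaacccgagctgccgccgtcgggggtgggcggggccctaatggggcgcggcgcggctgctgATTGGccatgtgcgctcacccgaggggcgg
Srebf2 (chr15:82147019-82147268, plus strand): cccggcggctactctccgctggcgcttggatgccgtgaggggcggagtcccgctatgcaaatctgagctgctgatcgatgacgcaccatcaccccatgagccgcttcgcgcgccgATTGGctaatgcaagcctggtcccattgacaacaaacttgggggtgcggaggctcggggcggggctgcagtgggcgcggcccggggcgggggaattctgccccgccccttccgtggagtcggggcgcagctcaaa

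Hmgcs1 was the only one of the 26 genes whose stretch held the letters TCACNCCAC, on the plus strand with its first base 137 bases before the start. Of 32526 distinct promoters of the same length, 1.05% held them. Other forms of the element were not searched for, so a stretch without these letters may still hold one. The Hmgcs1 stretch also had 3 CCAAT boxes, with their first bases 237, 176 and 45 bases before the start, and the element and the boxes shared no base. CCAAT boxes occurred in 23 of the 35 stretches (65.7%), against 33.8% of all promoters and 35.3% of those of protein-coding genes. The GC box GGGCGG, searched on both strands, occurred in 24 of the 35 (68.6%), against 33.0% of all promoters and 43.1% of coding ones. An E-box (CANNTG) occurred in 24 of the 35 as well (68.6%), against 66.2% and 62.8%. Start sites of 1 gene can share bases, so the 35 are not independent, and a match describes letters only.

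Genes of sterol synthesis moved both ways in CsA kidneys. Fdps and Fdft1, which make farnesyl diphosphate and squalene, were 1.52-fold and 1.44-fold higher, and Hmgcs1, Idi1, Cyp51 and Sqle were 1.55-fold, 1.46-fold, 1.39-fold and 1.33-fold lower. The 2 SREBP genes were higher, Srebf1 by 1.80-fold and Srebf2 by 1.32-fold. In all, 6 genes were higher and 5 lower at an adjusted p under 0.05 (limma with Benjamini-Hochberg adjustment over all 30896 genes, 2-sided). These 11 of 31 (35.5%) stood beside 6.49% of all genes called, 2.95% higher and 3.54% lower. Every one of the 31 had a mean above the median gene, and among the 15448 genes at or above that median 11.9% were called. The median difference of the 31 was 0.05 log2 units, against 0.01 over all genes, and their median absolute difference was 0.22, against 0.11. In the 8 male arrays 2 of the 31 were higher (Fdps, Srebf1) and 2 lower (Hmgcs1, Ggps1), or 12.9%, beside 3.17% of all genes (1.53% higher, 1.64% lower) and 5.7% of those at or above the median. With a term for female arrays in the fit, Fdps and Srebf1 were called higher and Hmgcs1 lower, beside 3.27% of all genes (1.62% higher, 1.65% lower). In bulk tissue, fewer cells of a type and less RNA per cell cannot be told apart.

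**Figure D1:**
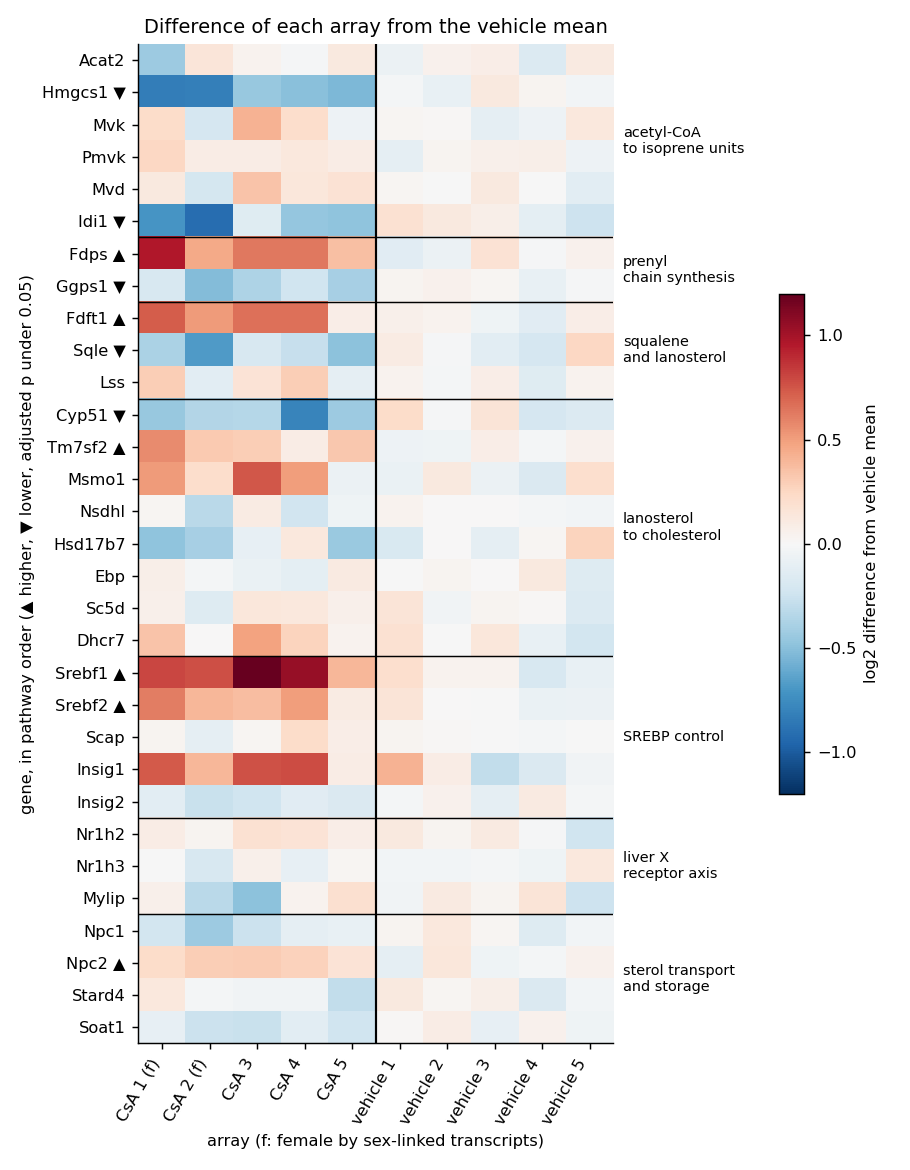
Difference of each array from the vehicle mean on the log2 scale for the 31 genes in pathway order, with CsA arrays left of vehicle arrays. Genes marked as higher or lower passed an adjusted p of 0.05 over 10 arrays; the called enzymes run Hmgcs1 and Idi1 lower, Fdps higher, Ggps1 lower, Fdft1 higher, Sqle and Cyp51 lower and Tm7sf2 higher.

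Taken in order along the route, the first called enzyme was Hmgcs1, the cytosolic synthase that makes HMG-CoA, the precursor of mevalonate. It stood at 10.01, 10.02, 10.39, 10.34 and 10.30 in CsA replicates 1 to 5, and at 10.82, 10.75, 10.96, 10.87 and 10.81 in vehicle replicates 1 to 5. All CsA values were below all vehicle values, and the 2 female arrays were the lowest. The difference was -0.63 ± 0.09 log2 units (SE; limma adjusted p = 0.00227) over 10 arrays and -0.50 ± 0.07 over the 8 male arrays (adjusted p = 0.0104). It passed the threshold in each of the 10 fits that left out 1 array, between -0.67 and -0.58. Among male arrays it passed in 7 of 8 such fits, and gave adjusted p = 0.0505 without CsA replicate 5.

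The next steps showed little. Mvk and Pmvk, the kinases that phosphorylate mevalonate, and Mvd, which decarboxylates the product to isopentenyl diphosphate, differed by 0.12 ± 0.11, 0.13 ± 0.06 and 0.11 ± 0.10 log2 units (SE), with limma adjusted p of 0.596, 0.287 and 0.561. Pmvk values nonetheless did not overlap, at 7.11 to 7.26 in CsA and 6.91 to 7.09 in vehicle kidneys. Over male arrays the differences of Mvk, Pmvk and Mvd were 0.19, 0.10 and 0.22 (adjusted p = 0.384, 0.480 and 0.183), and Mvd values no longer overlapped. Acat2, the cytosolic thiolase that opens the route, differed by -0.03 ± 0.11 (adjusted p = 0.913), and by 0.05 over male arrays (adjusted p = 0.819).

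Idi1 converts isopentenyl diphosphate to dimethylallyl diphosphate, the starter of the isoprene chain. Its values were 7.35, 7.14, 7.91, 7.60 and 7.57 in CsA replicates 1 to 5, against 8.24, 8.18, 8.13, 7.94 and 7.81 in vehicle replicates 1 to 5. CsA replicate 3 lay above vehicle replicate 5, so the groups overlapped. The difference of -0.55 ± 0.13 (SE; limma adjusted p = 0.0328) became -0.37 over male arrays and did not pass there (adjusted p = 0.137). With 1 of the 10 arrays left out it ranged from -0.64 to -0.45 and passed only without CsA replicate 3 or without vehicle replicate 5, with adjusted p up to 0.0799 in the other 8 fits.

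Fdps, the synthase of farnesyl diphosphate, rose, and Ggps1, which lengthens that product to geranylgeranyl diphosphate, fell. Fdps read 7.35, 6.84, 7.03, 7.02 and 6.75 in CsA replicates 1 to 5 and 6.25, 6.32, 6.56, 6.37 and 6.44 in vehicle replicates 1 to 5. Every CsA value lay above every vehicle value. The difference was 0.61 ± 0.11 over 10 arrays (SE; limma adjusted p = 0.00743) and 0.54 ± 0.10 over male arrays (adjusted p = 0.0224). Fdps passed in all 10 fits with 1 array left out, but among male arrays it missed without CsA replicate 3, CsA replicate 4, vehicle replicate 2 or vehicle replicate 4, with adjusted p up to 0.0971.

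Ggps1 values were 8.08, 7.75, 7.90, 8.03 and 7.87 in CsA replicates 1 to 5, against 8.30, 8.32, 8.30, 8.18 and 8.26 in vehicle replicates 1 to 5. Again the groups did not overlap. Its difference was -0.35 ± 0.07 over 10 arrays (SE; limma adjusted p = 0.0164) and -0.34 ± 0.07 over male arrays (adjusted p = 0.0357). Each of the 10 fits that left out 1 array kept it past the threshold, whereas among male arrays only the fit without vehicle replicate 5 did (adjusted p = 0.0492), the other 7 reaching 0.129.

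Fdft1, squalene synthase, commits farnesyl diphosphate to sterols. In CsA replicates 1 to 5 it read 8.71, 8.50, 8.65, 8.65 and 8.06, and in vehicle replicates 1 to 5 8.04, 8.03, 7.93, 7.85 and 8.07. CsA replicate 5 lay within the vehicle range, and the other 4 CsA arrays above it. The difference was 0.53 ± 0.11 (SE; limma adjusted p = 0.0182), and in the fits that left out 1 array it ran from 0.48 to 0.64 with adjusted p at most 0.0485. Over male arrays it was 0.47 (adjusted p = 0.0951), and with 1 of the 8 male arrays left out it ran from 0.37 to 0.66. It passed there in 1 of 8 fits, without CsA replicate 5 (adjusted p = 0.0234), and adjusted p reached 0.292 in the other 7.

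Sqle, the epoxidase that takes squalene onward and is a control point of the route, fell. Its values were 8.35, 8.05, 8.54, 8.45 and 8.24 in CsA replicates 1 to 5, and 8.83, 8.72, 8.60, 8.53 and 8.98 in vehicle replicates 1 to 5. The highest CsA value and the lowest vehicle value crossed by a small margin. The difference was -0.41 ± 0.11 (SE; limma adjusted p = 0.0457) and -0.32 over male arrays (adjusted p = 0.166). It missed the threshold in 8 of the 10 fits with 1 array left out, passing without CsA replicate 3 or vehicle replicate 4, and its adjusted p reached 0.102. Lss, which closes the ring to lanosterol, differed by 0.10 ± 0.10 (adjusted p = 0.602), and by 0.12 over male arrays.

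Of the 8 genes between lanosterol and cholesterol, 1 rose and 1 fell. Cyp51, the cytochrome P450 that removes the first methyl group of lanosterol, stood at 8.69, 8.80, 8.81, 8.36 and 8.72 in CsA replicates 1 to 5 and at 9.37, 9.14, 9.30, 8.95 and 8.99 in vehicle replicates 1 to 5. The groups did not overlap, and CsA replicate 4 was lowest. Its difference of -0.47 ± 0.11 (SE; limma adjusted p = 0.0248) was -0.52 over male arrays, where it did not pass (adjusted p = 0.0665). Leaving out vehicle replicate 1, 2 or 3 also took it past 0.05, to 0.0671 at most, with differences from -0.52 to -0.39 over the 10 fits.

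Tm7sf2, a sterol reductase of the endoplasmic reticulum, gave 7.75, 7.50, 7.48, 7.27 and 7.51 in CsA replicates 1 to 5, against 7.13, 7.14, 7.27, 7.16 and 7.23 in vehicle replicates 1 to 5. CsA replicate 4 and vehicle replicate 3 nearly met. The difference was 0.32 ± 0.08 (SE; limma adjusted p = 0.0443), and 0.23 over male arrays (adjusted p = 0.145). It passed in only 1 of the 10 fits with 1 array left out, that without CsA replicate 4, and reached adjusted p = 0.100 in the others. Centring the arrays within bins of gene length, an alternative chosen after seeing the data, gave 0.28 (adjusted p = 0.0768).

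The other 6 genes of this stretch were not called. Msmo1, the sterol C4-methyl oxidase, had the largest difference among them, 0.38 ± 0.14 log2 units (SE; limma adjusted p = 0.132), with CsA values from 6.70 to 7.51 and vehicle values from 6.60 to 6.97. With 1 array left out it ran from 0.29 to 0.49 and passed in 1 of 10 fits, without CsA replicate 5 (adjusted p = 0.0329), with adjusted p up to 0.250 in the others. Over male arrays it was 0.39 (adjusted p = 0.243), and none of 8 fits with 1 array left out passed (0.21 to 0.62). Dhcr7, the last reductase of the route, differed by 0.23 ± 0.11 (adjusted p = 0.254) and Hsd17b7, a sterol ketoreductase, by -0.26 ± 0.13 (adjusted p = 0.267). Sc5d, the desaturase that acts before Dhcr7, differed by 0.05 ± 0.08. Nsdhl and Ebp, a decarboxylating dehydrogenase and an isomerase, are both X-linked, and differed by -0.10 ± 0.08 and -0.01 ± 0.07. Over male arrays the differences were 0.26 for Dhcr7, -0.14 for Hsd17b7, 0.11 for Sc5d, -0.06 for Nsdhl and -0.03 for Ebp, none called. For Nsdhl and Ebp the female minus male differences among CsA arrays were -0.09 and 0.05, with adjusted p of 0.885 and 0.929.

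**Figure D2:**
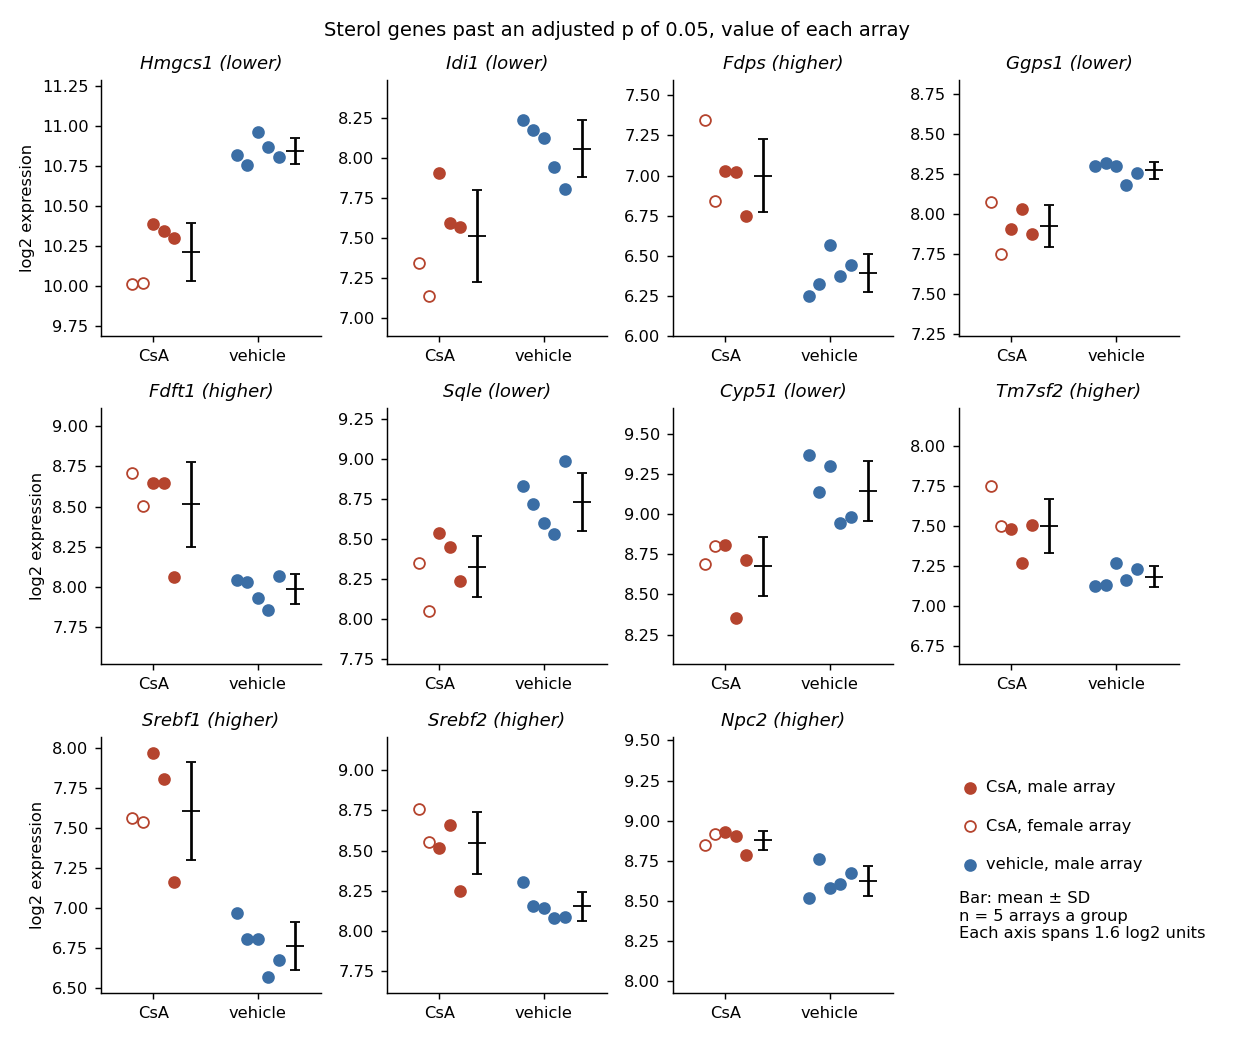
Log2 expression of each array for the 11 called genes, CsA left and vehicle right, with open circles for the 2 female CsA arrays and bars for the mean and SD of 5 arrays. Hmgcs1, Fdps, Ggps1, Cyp51, Tm7sf2, Srebf1 and Npc2 show no overlap between groups, and CsA replicate 5 is the lowest CsA point for Fdps, Fdft1, Srebf1, Srebf2 and Npc2.

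Among the genes of SREBP control, both transcription factor genes rose. Srebf1, whose products favour fatty acid genes, had the largest difference of the 31. It stood at 7.56, 7.54, 7.97, 7.81 and 7.17 in CsA replicates 1 to 5, against 6.97, 6.81, 6.81, 6.57 and 6.67 in vehicle replicates 1 to 5. All CsA values were above all vehicle values, with CsA replicate 5 the lowest of them. The difference was 0.84 ± 0.13 over 10 arrays (SE; limma adjusted p = 0.00410) and 0.88 ± 0.17 over male arrays (adjusted p = 0.0271). It passed in every fit that left out 1 of the 10 arrays. Among male arrays it missed without CsA replicate 3 or 4, or vehicle replicate 2, 3 or 4, with adjusted p up to 0.106, and ran from 0.72 to 1.12.

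Srebf2, whose product favours cholesterol genes, read 8.76, 8.55, 8.52, 8.66 and 8.25 in CsA replicates 1 to 5 and 8.30, 8.15, 8.14, 8.08 and 8.08 in vehicle replicates 1 to 5. Only CsA replicate 5 fell below a vehicle value. The difference of 0.40 ± 0.09 (SE; limma adjusted p = 0.0273) was 0.32 over male arrays (adjusted p = 0.118). It stayed past the threshold without CsA replicate 3, CsA replicate 5 or vehicle replicate 1, and missed it in the other 7 fits that left out 1 array (adjusted p up to 0.0661).

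The 2 Insig genes, whose proteins retain the Scap-SREBP complex in the endoplasmic reticulum, differed in opposite directions without passing. Insig1, a known SREBP target, read 9.36, 9.02, 9.39, 9.41 and 8.71 in CsA replicates 1 to 5, against 9.04, 8.71, 8.33, 8.45 and 8.58 in vehicle replicates 1 to 5. The groups overlapped through CsA replicates 2 and 5 and vehicle replicate 1. The difference was 0.56 ± 0.16 (SE; limma adjusted p = 0.0584) and 0.55 over male arrays (adjusted p = 0.163). With 1 of the 10 arrays left out it ran from 0.48 to 0.67 and passed in 2 fits, without CsA replicate 5 (adjusted p = 0.0218) or vehicle replicate 1 (adjusted p = 0.0331), with adjusted p up to 0.134 in the other 8. Insig2 lay between 7.10 and 7.23 in CsA and between 7.25 and 7.47 in vehicle kidneys, a difference of -0.19 ± 0.06 (adjusted p = 0.107). Scap, the escort, differed by 0.05 ± 0.07 (adjusted p = 0.738), with a 95% interval from -0.10 to 0.20. Over male arrays Insig2 differed by -0.19 and Scap by 0.11, neither called.

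**Figure D3:**
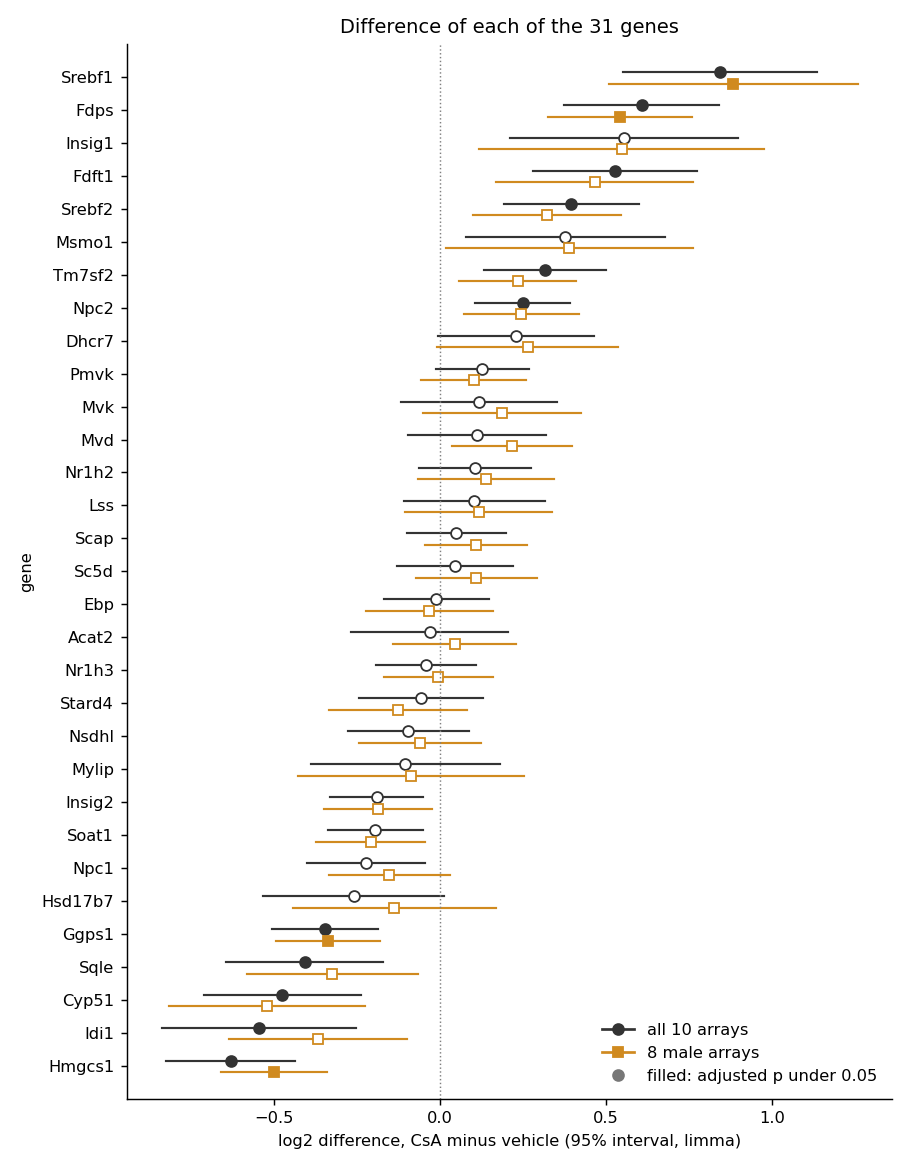
Log2 difference, CsA minus vehicle, with its 95% interval from limma for each of the 31 genes over all 10 arrays (circles) and over the 8 male arrays (squares), filled where the adjusted p was under 0.05. The order runs from Srebf1 at 0.84 to Hmgcs1 at -0.63, and 4 genes are filled in both comparisons.

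No gene of the liver X receptor axis was called by limma, and none of the 3 had an unadjusted p under 0.05. Nr1h2 and Nr1h3 encode the liver X receptors, which sense oxysterols, and Mylip encodes a ubiquitin ligase they induce that removes lipoprotein receptors. Their differences were 0.11 ± 0.08, -0.04 ± 0.07 and -0.10 ± 0.13 log2 units (SE), and over male arrays 0.14, -0.0040 and -0.09. The 3 features of Nr1h2, read in the same samples and so not independent, differed by 0.09, 0.11 and 0.15. Their limma adjusted p ran from 0.390 to 0.592 over all 41345 features.

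Of the 4 genes for sterol transport and storage, Npc2 rose. Npc2, the lysosomal protein that hands cholesterol to Npc1, stood at 8.85, 8.92, 8.93, 8.90 and 8.79 in CsA replicates 1 to 5, against 8.51, 8.76, 8.58, 8.60 and 8.67 in vehicle replicates 1 to 5. The groups did not overlap, though CsA replicate 5 and vehicle replicate 2 were close. Its difference was 0.25 ± 0.07 (SE; limma adjusted p = 0.0422) and 0.25 over male arrays (adjusted p = 0.126). It passed without CsA replicate 5 or vehicle replicate 2, and missed in the other 8 fits with 1 array left out (adjusted p up to 0.100). Npc1, the membrane partner, differed the other way, by -0.22 ± 0.08 (adjusted p = 0.135). Soat1, which esterifies cholesterol for storage, differed by -0.19 ± 0.07 (adjusted p = 0.106) and Stard4, a cytosolic sterol carrier, by -0.06 ± 0.09 (adjusted p = 0.772). Over male arrays these 3 differed by -0.15, -0.21 and -0.13, none called. The dim second feature of Soat1 gave -0.19 ± 0.22.

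Macrophage markers were also higher in CsA than in vehicle arrays, as was Npc2, a gene that phagocytes also express. Whether they followed Npc2 from array to array within a group was not tested. Of 11 markers 8 rose and none fell, their mean lying between 6.94 and 7.23 in CsA arrays and between 6.36 and 6.58 in vehicle arrays, and their part in the result was not tested. These 8 stood beside 2.95% of all genes higher, and 7 of the 11 rose over male arrays, beside 1.53%. The complement genes C1qc and C1qb were 0.74 ± 0.08 and 0.99 ± 0.11 log2 units higher (SE), the surface receptor Adgre1 0.86 ± 0.12 and the lysosomal protein Cd68 0.58 ± 0.08, with limma adjusted p at most 0.00220. Adrenal cortex, a gland beside the kidney that uses cholesterol, gave low values in both groups. Limma called none of its 9 markers, and none had an unadjusted p under 0.05. Their mean was 4.13 to 4.31 in CsA and 4.14 to 4.31 in vehicle arrays. Of 10 adipocyte markers, Retn (resistin) rose by 0.82 ± 0.17 (limma adjusted p = 0.0139), and the median of the 10 was 0.23. An unadjusted p under 0.05 was seen in 4 of them, beside 6422 of all 30896 genes. Of these 4, Retn, Cfd and Cidec were higher and Pck1 was lower, by -0.23. Pck1 was brighter on average than 99.8% of genes here, so it may not mark adipocytes alone. Over male arrays 2 of the 10 rose, Retn by 0.96 (adjusted p = 0.0169) and Cfd (adipsin) by 0.68 (adjusted p = 0.0312). The median there was 0.34, and 6 of the 10 had an unadjusted p under 0.05, beside 5818 of all genes. The mean of the 10 markers was 6.28 to 6.73 in CsA and 6.09 to 6.54 in vehicle arrays, and its part in the lipid genes was not tested. Among the proximal tubule markers Miox was called, 0.26 ± 0.06 higher (adjusted p = 0.0218), and over male arrays the difference of 0.24 did not pass (adjusted p = 0.0874).

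Over the called genes, the arrays did not keep 1 order. CsA replicate 5 was the lowest CsA array for 5 of the 6 genes that rose, and CsA replicate 4 for the other, Tm7sf2. For the 5 genes that fell, CsA replicate 2 was the lowest CsA array in 3 and CsA replicate 3 the highest in 4. Over all 31 genes CsA replicate 2 was lowest in 15 and CsA replicate 3 highest in 14. The fit with a term for female arrays called none of the 31 genes between the 2 female and the 3 male CsA arrays. Of all genes 0.589% were called (0.181% higher, 0.408% lower). Of the 31, 3 had an unadjusted p under 0.05, and the share of all genes at that level was not counted for this term. Over 10 arrays, values of CsA and vehicle kidneys were fully apart in 9 of the 31 genes, 5 higher and 4 lower, beside 9.09% of all genes (4.04% higher, 5.05% lower) and 16.6% of those at or above the median. Over male arrays they were apart in 11, 6 higher and 5 lower, beside 15.1% of all genes (6.98% higher, 8.1% lower). For male arrays the share among genes at or above the median was not counted.

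Lists of genes around the route are read beside 2.95% of all genes higher and 3.54% lower. Among genes at or above the median 11.9% were called, and 6422 of all 30896 genes had an unadjusted p under 0.05. Of 17 genes of the isoprenoid branches, 5 fell and none rose, 8 had an unadjusted p under 0.05, and their median difference was -0.13 log2 units. Besides Ggps1 these were Pdss1 and Pdss2, the subunits that build the ubiquinone side chain, Chm, which presents Rab proteins for prenylation, and Nus1, a subunit of the dolichol chain enzyme. Pdss1 stood at 6.33, 6.33, 6.75, 6.95 and 6.80 in CsA replicates 1 to 5 and at 7.35, 7.40, 7.68, 7.21 and 7.31 in vehicle replicates 1 to 5. That was the largest difference of the list, -0.76 ± 0.13 (SE; limma adjusted p = 0.00712), and -0.56 over male arrays (adjusted p = 0.0287). Chm, Pdss2 and Nus1 were lower by -0.36, -0.32 and -0.31, and none of the 3 passed over male arrays (adjusted p = 0.0718, 0.107 and 0.119). Pdss1 and Ggps1 were the 2 of the list called there.

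Mbtps2, the membrane protease that makes the final cut in SREBP, was the 1 gene called of 14 for SREBP processing and sterol-regulated degradation. That share was near the 6.49% of all genes called. Of the 14, 9 had an unadjusted p under 0.05, beside 6422 of all 30896 genes. Of these 9, Mbtps2, Marchf6, Erlin1, Erlin2, Vcp, Rnf139 and Ubxn2a were lower and the others higher. Mbtps2 read 6.88, 6.74, 6.92, 6.90 and 6.98 in CsA replicates 1 to 5, against 7.55, 7.47, 7.48, 7.40 and 7.27 in vehicle replicates 1 to 5. The groups did not overlap, the difference was -0.55 ± 0.07 (SE; limma adjusted p = 0.00157), and it held over male arrays (-0.50, adjusted p = 0.0143). Mbtps1, the protease of the first cut, and Spring1, which Mbtps1 needs, differed by 0.17 and 0.20 (adjusted p = 0.161 and 0.0910), and were not called over male arrays either (0.13 and 0.23).

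**Figure D4:**
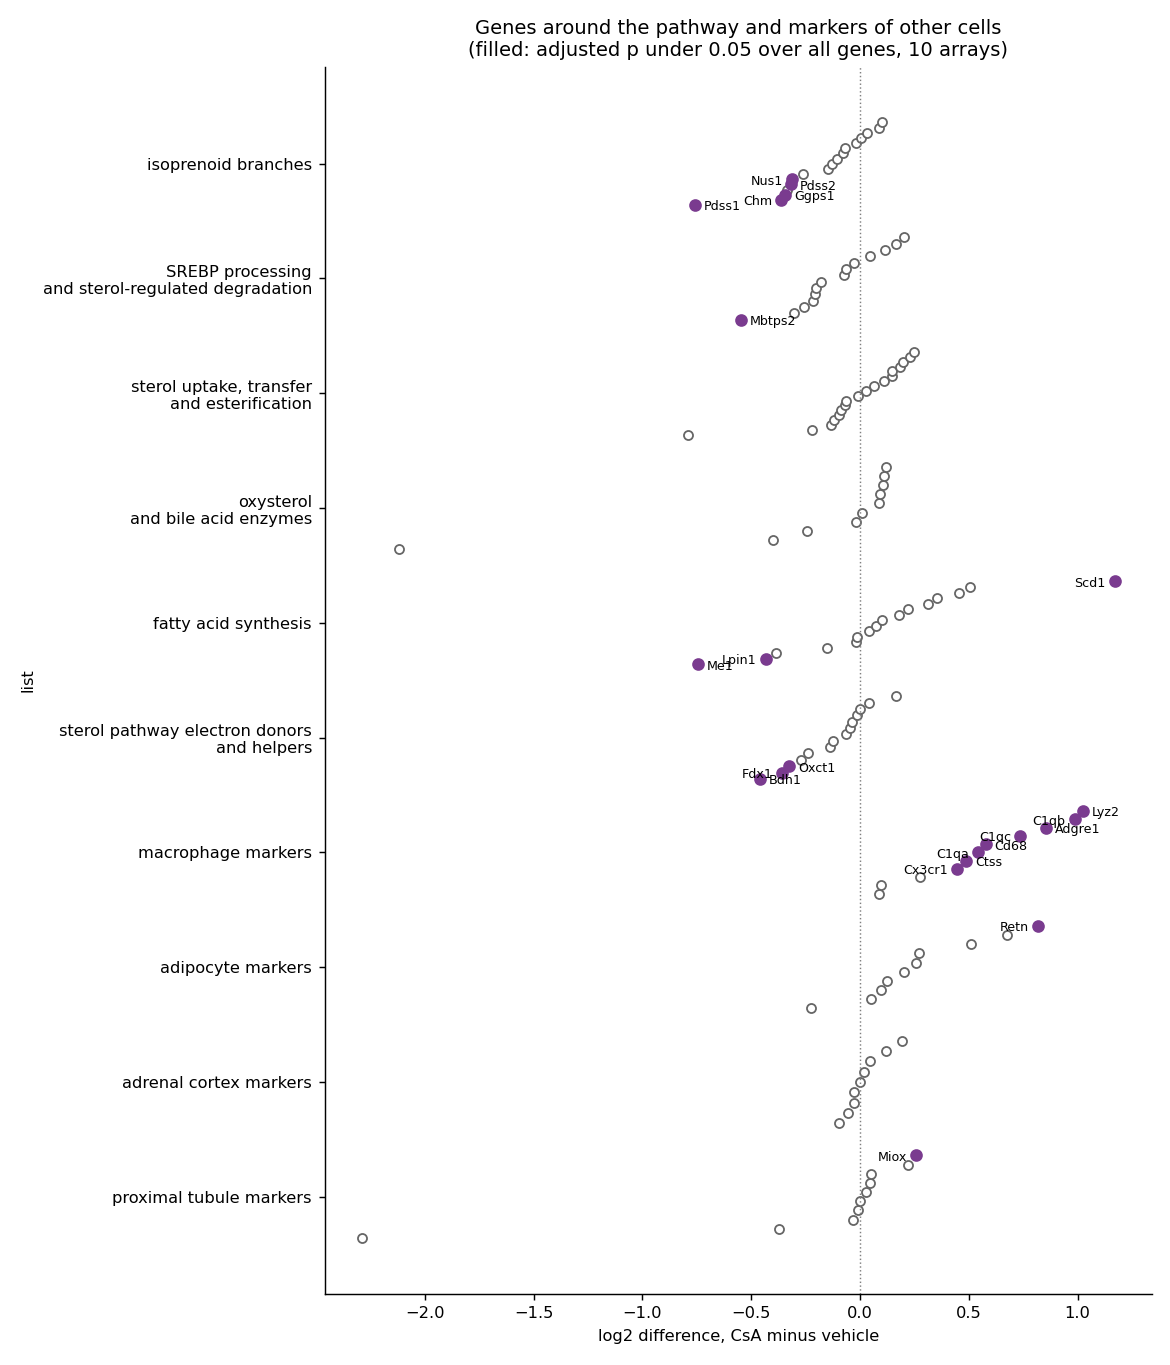
Log2 difference, CsA minus vehicle, of each gene in 6 lists around the sterol route and 4 lists of cell type markers, over 10 arrays, filled and named where the adjusted p over all genes was under 0.05. Called genes of the isoprenoid, SREBP processing and helper lists lie left of 0, called macrophage markers right of 0, and the 2 open points beyond -2 are Cyp7b1 and the proximal tubule gene Kap.

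Fatty acid synthesis, the branch that SREBP-1 products favour, showed 1 rise and 2 falls among 16 genes. Of these, 9 had an unadjusted p under 0.05, beside 6422 of all 30896 genes. Scd1, the stearoyl-CoA desaturase, stood at 11.04, 10.88, 9.84, 9.84 and 10.08 in CsA replicates 1 to 5, against 10.14, 9.22, 8.87, 8.79 and 8.80 in vehicle replicates 1 to 5. The female arrays were the highest and vehicle replicate 1 lay within the CsA range. Its difference was 1.17 ± 0.30 (SE; limma adjusted p = 0.0390) over 10 arrays and 0.76 over male arrays (adjusted p = 0.181). Me1, the malic enzyme that supplies NADPH, fell by 0.75 on the log2 scale (adjusted p = 0.0183; -0.49 and 0.0490 over male arrays), and Lpin1, a phosphatidate phosphatase, by 0.43 (adjusted p = 0.0126; -0.47 and 0.0277 over male arrays). The median of the list was 0.09, and 0.13 over male arrays.

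Of 14 electron donors and helper genes, 3 fell over 10 arrays, beside 3.54% of all genes, and the same 3 fell over male arrays, beside 1.64%. They were Bdh1 and Oxct1, mitochondrial enzymes of ketone body use, and Fdx1, the mitochondrial ferredoxin. Their differences were -0.46 ± 0.09, -0.33 ± 0.07 and -0.36 ± 0.07 (SE), with limma adjusted p of 0.00957, 0.0193 and 0.00953. Other electron donors of the list, Por, Cyb5a, Cyb5b and Cyb5r3, differed by 0.0012, -0.01, -0.13 and -0.14, and none was called. For sterol uptake, transfer and esterification (18 genes) and for oxysterol and bile acid enzymes (10 genes) limma called none over 10 arrays. An unadjusted p under 0.05 was seen in 7 and 2 genes, beside 6422 of all 30896. Over male arrays Cyp7b1, an oxysterol hydroxylase, fell by 0.90 (adjusted p = 0.0124).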

How the data were processed

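The authors deposited log2 expression values, 1 per feature and array, in 2 tables that were identical (largest difference 0), so 1 was used. RMA and Partek 6.4 are named in the submitters' processing notes, without order or settings. The genome build and annotation version are not given in the sources used here. The arrays held 41345 features, 8874 without a symbol. Symbols were updated through RefSeq (GRCm38.p6), and of several features for 1 of the 30896 genes the brightest on average was kept, with no filter on low values.

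Differences between CsA and vehicle were tested with lmFit and eBayes of limma 3.58.1 (R 4.3.3), 2-sided, without covariates and with Benjamini-Hochberg adjustment over all genes. A gene was called at an adjusted p under 0.05. Differences are CsA minus vehicle. Array scales compress differences near background and near saturation. Arrays were taken as female where Xist exceeded the mean of 4 Y-linked genes. The procedure was tested on simulated data, drawn for each gene independently and without a sex difference. That test therefore does not cover the female arrays of the CsA group. Alternatives were filters, normalisations, variance models, feature choice, male arrays only, a term for female arrays and leaving out each array. Centring within 20 bins of gene length was chosen after seeing the data. The genes, lists and tests were chosen with earlier results of these data known. All 31 genes were reported, and up to 4 called genes per related list by smallest adjusted p. Other genes named, such as Nus1, and the Srebf2 promoter were chosen after their values were seen. Protein sequences were not used here.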

Additional observations from a re-analysis of the deposited data

Results flagged for a closer look

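Of 62 groups of 5 values (31 genes in 2 conditions), 5 held 1 array far from the other 4 by Dixon's criterion. Chance flags about 1 group in 20. Acat2 read 7.58 in CsA replicate 1, against 7.998 to 8.161 in the other CsA arrays, and Pmvk 7.26 in the same array, against 7.11 to 7.14. Cyp51 read 8.36 in CsA replicate 4, against 8.69 to 8.81, and Sc5d 8.62 in CsA replicate 2, against 8.84 to 8.91. Nr1h3 read 7.41 in vehicle replicate 5, against 7.23 to 7.26. Without CsA replicate 4 Cyp51 kept its call, at -0.39 log2 units.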

How the results depend on the processing

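The 2 deposited tables were identical, so the alternative of using the other was not run. No paired analysis was possible because the labels give no replicate numbers shared between the groups. The 6 higher and 5 lower calls became 2 and 2 over male arrays, also with centring by gene length, and 2 and 1 with a term for female arrays. Lower calls numbered 2 without variance moderation and 3 with all features tested. Leaving out 1 array gave 3 to 7 higher and 2 to 5 lower calls, and 0 to 3 and 0 to 2 among male arrays. Under the other settings, counts stayed within 1.5 times. Fewer arrays or more tests enter some of these fits; otherwise the cause was not tested. The sign turned only in genes that were not called. Acat2 became 0.0045 with quantile normalisation again, 0.0019 with array weights, 0.045 over male arrays and with a female term, and 0.044 there with centring by length, and ran from -0.075 to 0.070 with 1 array left out and from 0.0032 to 0.077 among male arrays (0.0476 and 0.0115 without CsA replicate 3 or 5, and 0.0286, 0.0585, 0.0644 and 0.0716 without vehicle replicate 1, 2, 3 or 5). Ebp was 0.0048 with quantile normalisation again, and -0.048 to 0.020 with 1 array left out (-0.10 to 0.014 in males). Other signs turned with 1 array left out: Stard4 over 10 arrays (-0.10 to 0.0038), and in males Nsdhl (-0.14 to 0.027), Hsd17b7 (-0.27 to 0.016), Nr1h3 (-0.036 to 0.041, and 0.0285 without vehicle replicate 5) and Mylip (-0.23 to 0.12).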

Other observations

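Cyp7b1 separated the 2 female CsA arrays from the rest, at 5.60 and 5.37 in CsA replicates 1 and 2, 8.77, 8.19 and 8.60 in CsA replicates 3 to 5, and 9.18 to 9.56 in vehicle kidneys. It was not called over 10 arrays (-2.12 ± 0.62 log2 units, SE; limma adjusted p = 0.0634), and the female minus male difference among CsA arrays was -3.04 (adjusted p = 3.8e-06). The gene was singled out after its values were seen.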
